A study of Mus musculus with 2 samples.

Results

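The 10 genes described here encode the 3 chains of complement C1q (C1qa, C1qb and C1qc) and 7 uptake receptors, adaptors and related proteins of macrophages (Mrc1, Lyve1, Msr1, Dab2, F13a1, Fcgrt and C5ar1). They are 10 of the 24543 genes in each count table, and all 10 were found in both tables. They were selected by name with their high level in the macrophages of these same cells known, so their levels across cell classes are given as a description with no test. The measurement was 10x single-cell RNA sequencing of CD31+CD44+ cells sorted from the caudal region of mouse embryos at embryonic day 10. The cKO embryos were Vec-Cre;Nupr1 fl/fl, in which a VE-cadherin-driven Cre deletes Nupr1 from the endothelial stage onward, and the controls were littermates carrying Nupr1 fl/fl or Nupr1 fl/+; the cell labels call the control WT. The 2 replicates were each 1 pool of hashtagged cells of both genotypes, run in 1 lane, and the number of embryos in a pool was not given in the sources used here. Macrophages entered the data through the CD31 and CD44 gate, so macrophages without these surface proteins were not measured.

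C1q is the recognition part of the classical complement pathway. Its A, B and C chains are encoded by separate genes, assemble in equal parts, and are made mainly by tissue macrophages, in which C1q also helps in the uptake of dying cells. Mrc1 (the mannose receptor CD206) and Msr1 (scavenger receptor A) bind sugars and modified lipoproteins, Lyve1 binds hyaluronan and is also known from lymphatic and early venous endothelium, and Dab2 is an adaptor of clathrin-mediated endocytosis. Fcgrt encodes the heavy chain of the neonatal Fc receptor, which recycles IgG and albumin, C5ar1 is the receptor of the complement fragment C5a, and F13a1 is the A subunit of coagulation factor XIII, known from platelets and macrophages.

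The 3 C1q genes lie side by side on chromosome 4 of GRCm38 within 18.7 kb, all on the minus strand: C1qb from 136880129 to 136886187, C1qc from 136889804 to 136893065 and C1qa from 136895917 to 136898803 (GENCODE M21). Mrc1 (chromosome 2, 14229392 to 14332057), Msr1 (chromosome 8, 39581685 to 39642673), Dab2 (chromosome 15, 6299788 to 6440712) and F13a1 (chromosome 13, 36867178 to 37050244) lie apart from each other. Lyve1 (110850607 to 110863239), Fcgrt (45092990 to 45103851) and C5ar1 (16246743 to 16259540) are all on chromosome 7. Promoter sequences were at hand for 7 of the 10 genes, with 9 promoters in all. The 3 printed here belong to the C1q neighbours C1qb and C1qc, whose levels moved together from cell to cell, and to Mrc1, whose level followed another order. They are RefSeq sequences of GRCm38.p6 that run from 250 bases before to 50 bases after the start (C1qb at chr4:136886151-136886450, minus strand; C1qc at chr4:136892865-136893164, minus strand; Mrc1 at chr2:14229164-14229463, plus strand), written 5′ to 3′ on the gene's strand. Capitals mark matches on either strand to GAGGAAG, an ETS-type motif of the kind bound by the macrophage factor Spi1, or to CATGTGA, an E-box of the MITF type.
C1qb: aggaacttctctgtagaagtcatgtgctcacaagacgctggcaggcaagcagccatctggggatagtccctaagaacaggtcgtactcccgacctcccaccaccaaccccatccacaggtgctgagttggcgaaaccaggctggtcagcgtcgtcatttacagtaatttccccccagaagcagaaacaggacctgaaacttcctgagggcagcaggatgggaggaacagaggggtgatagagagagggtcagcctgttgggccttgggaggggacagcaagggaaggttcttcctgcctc
C1qc: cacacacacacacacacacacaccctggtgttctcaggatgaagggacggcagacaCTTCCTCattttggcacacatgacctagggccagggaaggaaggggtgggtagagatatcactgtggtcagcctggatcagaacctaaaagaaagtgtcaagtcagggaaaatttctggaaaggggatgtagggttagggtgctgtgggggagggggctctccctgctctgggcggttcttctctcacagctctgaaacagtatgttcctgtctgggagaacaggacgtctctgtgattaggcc
Mrc1: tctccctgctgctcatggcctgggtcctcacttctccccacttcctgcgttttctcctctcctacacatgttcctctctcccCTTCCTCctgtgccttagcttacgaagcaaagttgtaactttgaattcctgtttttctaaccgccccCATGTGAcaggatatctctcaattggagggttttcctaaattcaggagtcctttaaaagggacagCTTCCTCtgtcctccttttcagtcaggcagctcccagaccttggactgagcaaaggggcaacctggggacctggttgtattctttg
GAGGAAG was found in 4 of the 9 promoters (C1qc, Mrc1 and both F13a1 promoters) and in 13.6% of all 32851 promoters of the same length. CATGTGA was found in the Mrc1 promoter only among the 9, and in 3.99% of all promoters. The MAF-type motif TGCTGAC and the TATA motif TATAAA were in none of the 9, and in 4.67% and 13.6% of all promoters. These matches describe letters in the window and were not tested for binding.

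The tables held 2139 cells with 123941324 UMIs, 678 cells in replicate 1 and 1461 in replicate 2, and no barcode was shared by the replicates. No deposited column gives a cell type, so cells were assigned by at least 2 UMIs of each gate gene: macrophage-like from Csf1r and Aif1, microglia-like where P2ry12 and Tmem119 were added, and the other classes from Gja5 (arterial-like), Nr2f2 with Aplnr (venous-like), Mpo with Fcgr3 (myeloid-like), Gfi1 with Neurl3 (EHT-like, for endothelial-to-hematopoietic transition) and Gp1bb with Gp9 (megakaryocyte-like). The macrophage gate took 604 cells, of which 515 were macrophage-like and 89 microglia-like, and held 10.8% of the cells of replicate 1 and 36.3% of those of replicate 2. Further markers of a class were highest in that class for 8 of 8 macrophage genes (microglia-like cells counted in), 7 of 7 arterial genes and 2 of 4 venous genes. The same held for 6 of 6 microglia, myeloid, EHT and megakaryocyte genes each. Of the microglia genes, Sall1 was near the floor, at 3.44 CPM in microglia-like and 1.59 in arterial-like cells. UMIs were summed over the cells of each class, genotype and replicate, and each level is given as CPM, the UMIs of the gene in every 1000000 UMIs of that sum. A UMI marks 1 captured transcript and the values are not divided by gene length. The 4 macrophage-like sums held 41 and 219 cKO cells and 24 and 231 control cells in replicates 1 and 2, so the values of replicate 1 rest on far fewer cells. In the macrophage gate the targeted Nupr1 was at 0.357 and 2.19 CPM in the cKO sums and 29.6 and 44.5 in the control sums.

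Among sums of at least 10 cells, all 10 genes were highest in a macrophage-like or microglia-like one. The macrophage gate held from 78.1% (F13a1) to 94.2% (C1qa) of a gene's UMIs. The C1q chains were the most abundant of them. C1qb in macrophage-like cells was at 1794 and 2565 in the cKO sums and 1611 and 2699 in the control sums of replicates 1 and 2, a mean of 2167 ± 545 (SD, n = 4 sums) CPM. C1qc was at 890.1 and 1359 in the cKO sums and 835 and 1539 in the control sums of replicates 1 and 2, and C1qa at 625 and 826 in the cKO sums and 718 and 956 in the control sums of replicates 1 and 2. For each C1q chain, both sums of replicate 2 were above both of replicate 1. C1qb made up 50.9% to 54.2% of the C1q UMIs of the 4 macrophage-like sums, C1qc 26.4% to 29.6% and C1qa 17.4% to 22.7%, although the protein holds the chains in equal parts; whether capture differs between the 3 transcripts was not tested. All 3 chains were detected in 97.1% of macrophage-like and 100% of microglia-like cells.

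**Figure D1:**
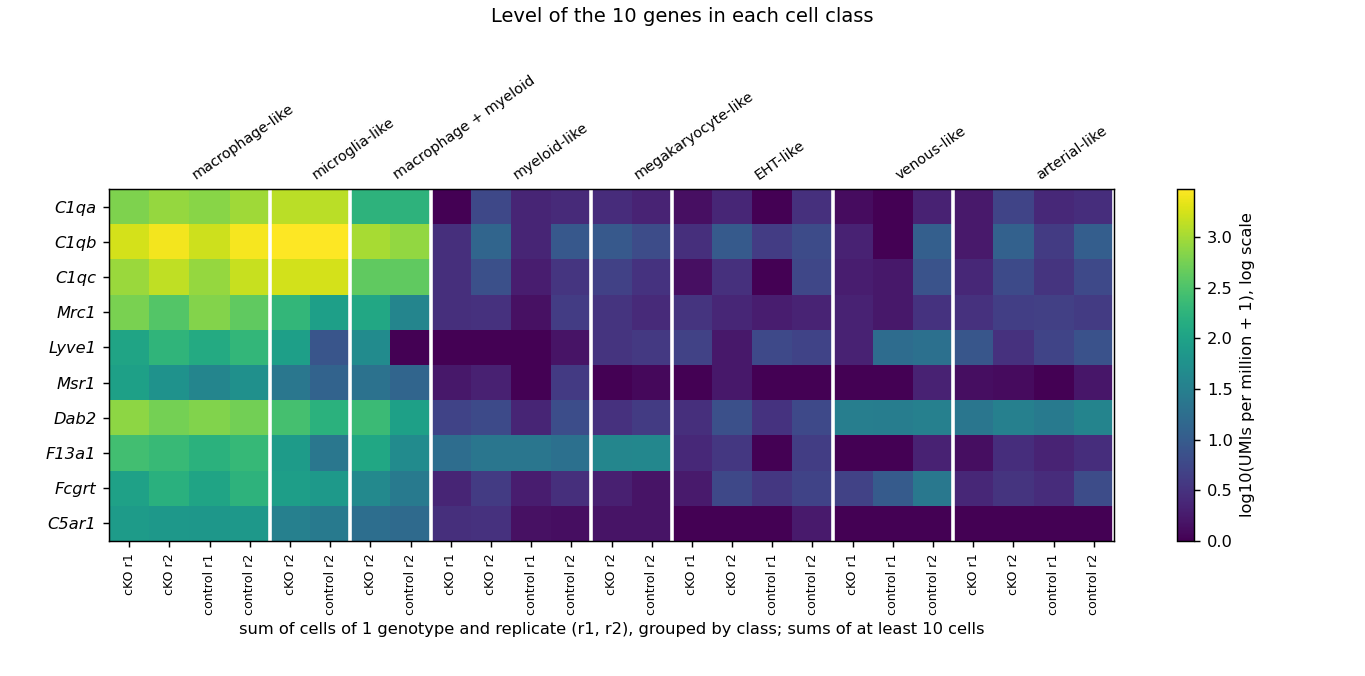
Levels of the 10 genes (rows) in each sum of at least 10 cells (columns, grouped by class), colored by log10(CPM + 1). All 10 rows are brightest in the macrophage-like or microglia-like columns, Dab2 stays visible in the venous-like and arterial-like columns, and F13a1 in the megakaryocyte-like and myeloid-like columns.

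Among the receptors and uptake genes, Dab2 and Mrc1 were the most abundant. Dab2 in macrophage-like cells was at 763 and 552 in the cKO sums and 657 and 534 in the control sums of replicates 1 and 2, and Mrc1 at 597 and 352 in the cKO sums and 680.1 and 415 in the control sums of replicates 1 and 2. Both genes were higher in the sums of replicate 1 than in those of replicate 2, the opposite order to C1q. F13a1 was at 265 and 216 in the cKO sums and 162 and 209 in the control sums of replicates 1 and 2. Lyve1 was at 105 and 187 in the cKO sums and 132 and 200.1 in the control sums of replicates 1 and 2, and Fcgrt at 96.0 and 159.5 in the cKO sums and 107 and 174 in the control sums of replicates 1 and 2. Lyve1 and Fcgrt were higher in both sums of replicate 2, as the C1q chains were. Msr1 was at 93.0 and 58.0 in the cKO sums and 36.9 and 54.6 in the control sums of replicates 1 and 2, with a spread of 60.6 ± 23.4 (SD, n = 4 sums) that was wide for its mean, and C5ar1 at 79.2 and 69.7 in the cKO sums and 68.3 and 70.9 in the control sums of replicates 1 and 2, the narrowest spread of the 10 relative to its mean (72.0 ± 4.90 (SD, n = 4 sums)). In the order of levels from C1qb down to Msr1, the 4 sums of C1qb lay above those of C1qc, those of Mrc1 above those of F13a1, and those of Fcgrt above those of C5ar1. All other neighbors in this order (C1qc, C1qa, Dab2 and Mrc1; F13a1, Lyve1 and Fcgrt; C5ar1 and Msr1) overlapped. A median macrophage-like cell of replicate 2 held 158 UMIs of C1qb, 29.0 of Dab2, 17.0 of Mrc1 and 1.00 of Lyve1. All 10 genes were detected together in 170 of the 515 macrophage-like cells (33.0%) and in 4 of the 89 microglia-like cells.

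Lyve1 was present in a part of the macrophage-like cells. Between 41.7% and 43.9% of the cells of each of the 4 sums had at least 2 Lyve1 UMIs, and 49.3% to 53.7% had none. In control replicate 2, the cells with Lyve1 had Mrc1 at 649 against 231 CPM in the cells without, Dab2 at 766 against 352, F13a1 at 341 against 105 and Fcgrt at 269 against 91.7. C5ar1 was at 120.1 against 34.5 and Msr1 at 84.1 against 29.7. The C1q chains went the same way by a smaller ratio, with C1qb at 3141 against 2375 and C1qa at 1220.3 against 771. All 9 genes were higher in the Lyve1 cells in each of the 4 sums. In cKO replicate 2, the corresponding values were 537 against 197 for Mrc1, 762 against 359.6 for Dab2 and 2952 against 2218 for C1qb. Depth did not favor the Lyve1 cells in cKO replicate 2, where their median was 58600 UMIs against 65133, and it was 53179.5 against 51378 in control replicate 2. This split uses a member gene to divide the cells and is a description.

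Across single macrophage-like cells of replicate 2, the C1q chains were closely related to each other and less so to most of the other genes. Spearman's rho of CPM between the 3 C1q chains was 0.74 to 0.85 in 231 control cells and 0.75 to 0.86 in 219 cKO cells. Among the other 7 genes rho was 0.28 to 0.81 in control cells, with a median of 0.53, and 0.32 to 0.81 in cKO cells, with a median of 0.46. Their highest pair was Mrc1 and Dab2, with rho = 0.81 in control and 0.81 in cKO cells. Between C1q chains and the other 7 genes rho was 0.05 to 0.63 in control cells, with a median of 0.29, and 0.13 to 0.61 in cKO cells, with a median of 0.29. The range overlapped that among the other 7 genes. Fcgrt had the highest rho with C1q of these 7, at 0.63 with C1qc in control and 0.61 in cKO cells, and was about as close to Mrc1, at 0.60 and 0.55. Msr1 had the lowest, at 0.05 with C1qa in control and 0.13 with C1qb in cKO cells. None of the pairs was negative. The cells of a sum share a library, and few UMIs per cell limit rho for genes such as Msr1 and C5ar1, so these values are a description.

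**Figure D2:**
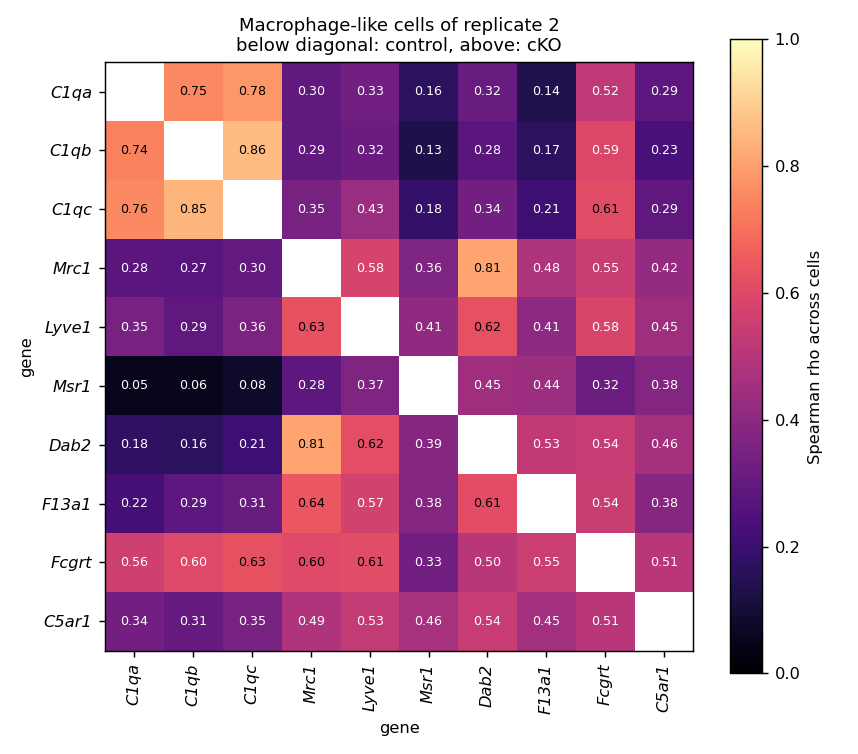
Spearman's rho between each pair of the 10 genes (both axes) across macrophage-like cells of replicate 2, with 231 control cells below and 219 cKO cells above the diagonal; color and printed number both give rho. The C1q block at the upper left and the pair of Mrc1 and Dab2 are the brightest, and the same pattern is seen on both sides of the diagonal.

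Microglia are the macrophages of the central nervous system, and the microglia-like cells of this caudal sort were compared with the other macrophage-like cells to see which of the 10 genes differ between macrophages. Only in replicate 2 did both classes have at least 10 cells of each genotype, so the comparison rests on 2 pairs of sums with pair as a block. Both pairs come from 1 pool and lane, so the p values of this comparison do not measure spread between pools. The fit left 1 residual degree of freedom, so the spread used for each gene was largely borrowed from other genes. The C1q chains were at least as high in microglia-like cells. C1qa was at 1312 and 1291 CPM in the microglia-like cKO and control sums and 826 and 956 in the macrophage-like ones (log2 fold change 0.58, SE 0.11, edgeR adjusted p = 2.58e-06). C1qc was at 1723 and 1773 CPM in the microglia-like cKO and control sums and 1359 and 1539 in the macrophage-like ones (log2 fold change 0.30, SE 0.11, edgeR adjusted p = 0.0458), and C1qb at 2969 and 2884 CPM in the microglia-like cKO and control sums and 2565 and 2699 in the macrophage-like ones (log2 fold change 0.18, SE 0.12, edgeR adjusted p = 0.351). The microglia-like sums of all 3 chains lay above the macrophage-like ones, but the difference of C1qb did not pass the test. The call of C1qc was lost under several settings, with an adjusted p of 0.0508 after RLE scaling and 0.142 in DESeq2.

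The receptors Msr1, Fcgrt and C5ar1 were lower in microglia-like cells. Msr1 was at 22.7 and 11.9 CPM in the microglia-like cKO and control sums and 58.0 and 54.6 in the macrophage-like ones (log2 fold change -1.68, SE 0.18, edgeR adjusted p = 4.31e-19). Fcgrt was at 86.2 and 75.7 CPM in the microglia-like cKO and control sums and 159.5 and 174 in the macrophage-like ones (log2 fold change -1.01, SE 0.11, edgeR adjusted p = 1.14e-16), and C5ar1 at 31.3 and 25.7 CPM in the microglia-like cKO and control sums and 69.7 and 70.9 in the macrophage-like ones (log2 fold change -1.27, SE 0.15, edgeR adjusted p = 3.99e-15). For these 3 genes the macrophage-like sums were all above the microglia-like sums. The genes were chosen with their macrophage level in these cells known, and 515 of the 604 macrophage-gate cells were macrophage-like. That choice can favor genes that are lower in microglia-like cells, so these p values are not independent of it. F13a1 was at 79.8 and 22.9 CPM in the microglia-like cKO and control sums and 216 and 209 in the macrophage-like ones, and its difference did not pass the test, the microglia-like sums lying far apart (log2 fold change -2.09, SE 0.75, edgeR adjusted p = 0.501). The summed level of 6 megakaryocyte markers was also lower, at 258 and 182 in the microglia-like and 749.9 and 501 in the macrophage-like sums. This sum was mainly Pf4, at 187 CPM over all microglia-like and 588 over all macrophage-like cells. Ppbp was lower too (2.43 against 10.1), as were Itga2b (2.02 against 2.83) and Gp5 (0.202 against 0.619). Treml1 (2.43 against 1.50) and Clec1b (6.27 against 5.60) went the other way. In megakaryocyte-like cells of replicate 2 the 6 markers summed to 22836 and 23478 CPM beside F13a1 levels of 38.8 and 39.4. Mrc1, Dab2 and Lyve1 were known beforehand to lead the larger macrophage population, so they are given without a test. Dab2 was at 278 and 162 CPM in the microglia-like cKO and control sums and 552 and 534 in the macrophage-like ones, Mrc1 at 200.4 and 89.1 CPM in the microglia-like cKO and control sums and 352 and 415 in the macrophage-like ones, and Lyve1 at 91.4 and 7.14 CPM in the microglia-like cKO and control sums and 187 and 200.1 in the macrophage-like ones. The Lyve1 level of the microglia-like cKO sum came from few cells, since 3 of its 38 cells and 1 of the 43 control cells had at least 2 Lyve1 UMIs.

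Of the 7 genes given with a test, 2 rose (C1qa and C1qc) and 3 fell (Msr1, Fcgrt and C5ar1) in microglia-like cells by this test, beside 9% of the 10420 tested genes that rose, 6.3% that fell and 15.3% called in either direction. The sums of all 7 were apart between the classes, beside 53.6% of the tested genes. Since the genes were chosen with their macrophage level known, the number that fell is a description. In each of the 12 settings run, the fold change of the 3 C1q chains was above 0 and that of Msr1, F13a1, Fcgrt and C5ar1 below 0. The setting with the stated cell limits removed no cell of replicate 2. With the 8 sums of at least 3 cells, which adds the 3 cKO and 5 control microglia-like cells of replicate 1, Msr1 (adjusted p = 3.59e-04) and C5ar1 (adjusted p = 3.65e-05) passed edgeR's test, whereas C1qa (adjusted p = 0.798), C1qc (0.537) and Fcgrt (0.0912) did not. C1qa was at 945 CPM in the 3 cKO cells and 323 in the 5 control cells, the latter below every macrophage-like sum.

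**Figure D3:**
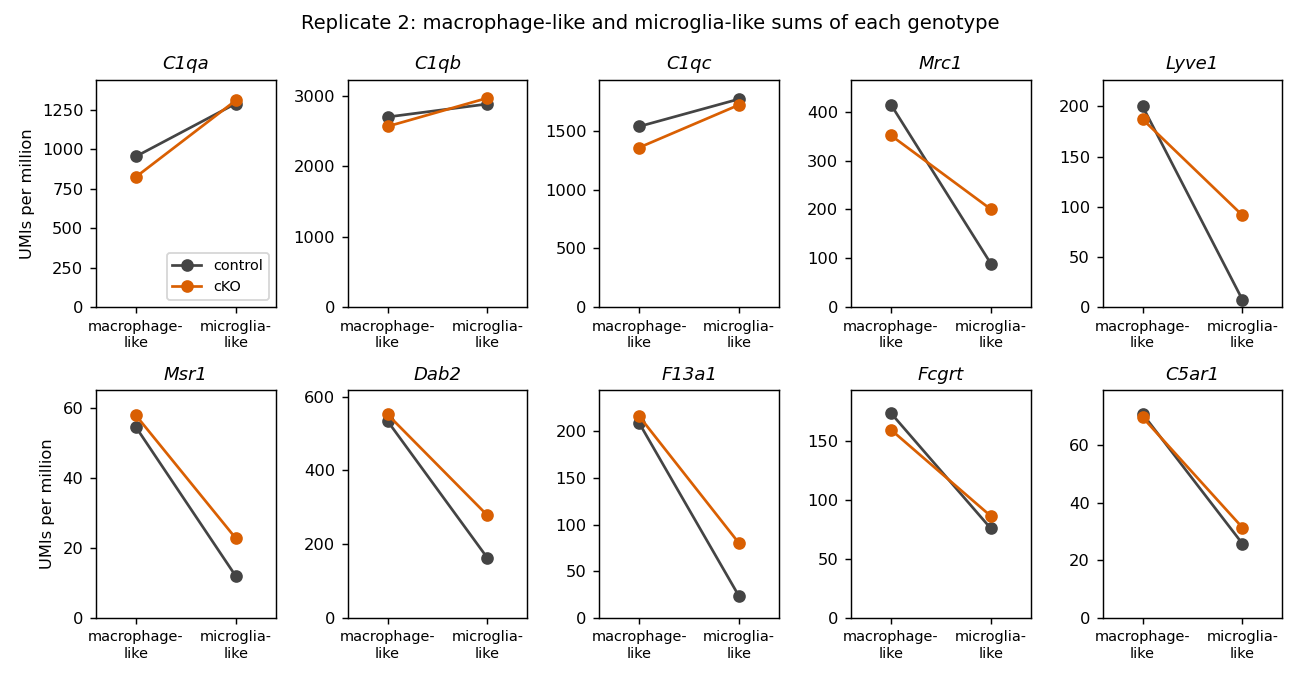
CPM of each gene (vertical axes from 0) in the macrophage-like and microglia-like sums of replicate 2, with a line joining the 2 sums of a genotype. Lines rise for C1qa, C1qb and C1qc and fall for the other 7 genes in both genotypes, with the widest gap between genotypes at Lyve1 in microglia-like cells.

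The other complement genes did not move together in this comparison. Of 23 listed, 12 passed the filter on low counts, 3 rose and 2 fell, beside 9% and 6.3% of all genes tested, and the median log2 fold change of the 12 was 0.22 against 0.01 over all genes tested. The 4 largest differences among those called were Cfp (-1.55), the stabilizer of the alternative pathway convertase, Itgam (1.11), a chain of complement receptor 3, Cfb (1.05), the alternative pathway protease factor B, and Itgb2, the partner chain of Itgam, at 0.46 on the log2 scale. Of 28 scavenger and uptake receptors, 20 were tested, 5 rose and 4 fell, beside the same shares of all genes, with a median of 0.04. The largest differences were those of Timd4 (-4.13), a phosphatidylserine receptor of resident macrophages, Axl (2.48), a receptor kinase for dying cells, Cxcl16 (2.45) and Clec7a (1.28), the beta-glucan receptor dectin-1.

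The genotype comparison asked whether the 10 genes differ between cKO and control cells of the macrophage gate, with 2 sums against 2. No gene was called by edgeR (0.0% of 10672 tested, 0 of the 10 members), 46 genes passed 0.05 before adjustment, 1 gene was called in DESeq2, and a fit with the replicate pool as a block called 2, none of them a member. Adjusted p values of the members were all 0.9999. C1qb and C1qc differed least. C1qb was at 1798 and 2624 in the cKO sums and 1602 and 2725 in the control sums of replicates 1 and 2, and its genotype difference was smaller than that between the replicates (log2 fold change 0.03, SE 0.36). C1qc (log2 fold change -0.04, SE 0.42) and C1qa (log2 fold change -0.10, SE 0.33) were alike in this. Mrc1 (log2 fold change -0.08, SE 0.31), Lyve1 (log2 fold change -0.06, SE 0.39) and Fcgrt (log2 fold change -0.08, SE 0.40) also had fold changes below their SE. The largest was that of Msr1, at 86.6 and 52.8 in the cKO sums and 33.0 and 48.7 in the control sums of replicates 1 and 2 (log2 fold change 0.71, SE 0.34, unadjusted p = 0.0751 by edgeR). F13a1 was at 247 and 196 in the cKO sums and 135 and 183 in the control sums of replicates 1 and 2 (log2 fold change 0.46, SE 0.27). The 2 cKO sums of Msr1 and of F13a1 were above both control sums, as for 2 of the 10 genes beside 18.5% of all tested genes in either direction. Dab2 had log2 fold change 0.23, SE 0.24, and C5ar1 log2 fold change 0.16, SE 0.25. The SE of the 10 log2 fold changes ran from 0.24 (Dab2) to 0.42 (C1qc), so the precision of this fit was low. It had no block for the pool that the genotypes share, so these SEs include the difference between replicates. They do not give the precision within a pool. With the pool as a block, 323 genes passed 0.05 before adjustment in edgeR, against 46 without it.

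The Xist level of the same sums was 6.77 and 175 in cKO and 564 and 368 CPM in control, so the mix of embryo sexes and the genotype cannot be told apart. The 6 megakaryocyte markers summed to 473 and 678 in cKO and 357 and 456 in control sums. This was the same order as F13a1 within each replicate. Over all macrophage-like cells Pf4 was at 588 CPM and each other marker at or below 10.1. The sum is thus mainly a Pf4 level. Whether transcripts of megakaryocytes had a part in the F13a1 levels was not tested. Of the complement list 12 genes and of the scavenger list 20 genes were tested for genotype, and none of them was called by edgeR. Microglia-like cells made up 6.82% (3 of 44; exact 95% interval 1.43 to 18.7) and 14.8% (38 of 257; exact 95% interval 10.7 to 19.7) of the macrophage gate in cKO and 17.2% (5 of 29; exact 95% interval 5.85 to 35.8) and 15.7% (43 of 274; exact 95% interval 11.6 to 20.6) in control. The mean share was 10.8% in cKO and 16.5% in control, a difference of -5.67 points (exact permutation test, two-sided, p = 0.333, which is the smallest p for 2 against 2), and the difference within replicate 2 was -0.907 points. Whether the difference between microglia-like and other macrophage-like cells depends on genotype could not be fitted on 2 pairs. On the 8 sums of at least 3 cells, a choice made after the data were seen, Lyve1 had the lowest unadjusted p of the members (0.0288, edgeR, adjusted p = 1.000), and 2 of 8677 genes were called, no member among them.

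**Figure D4:**
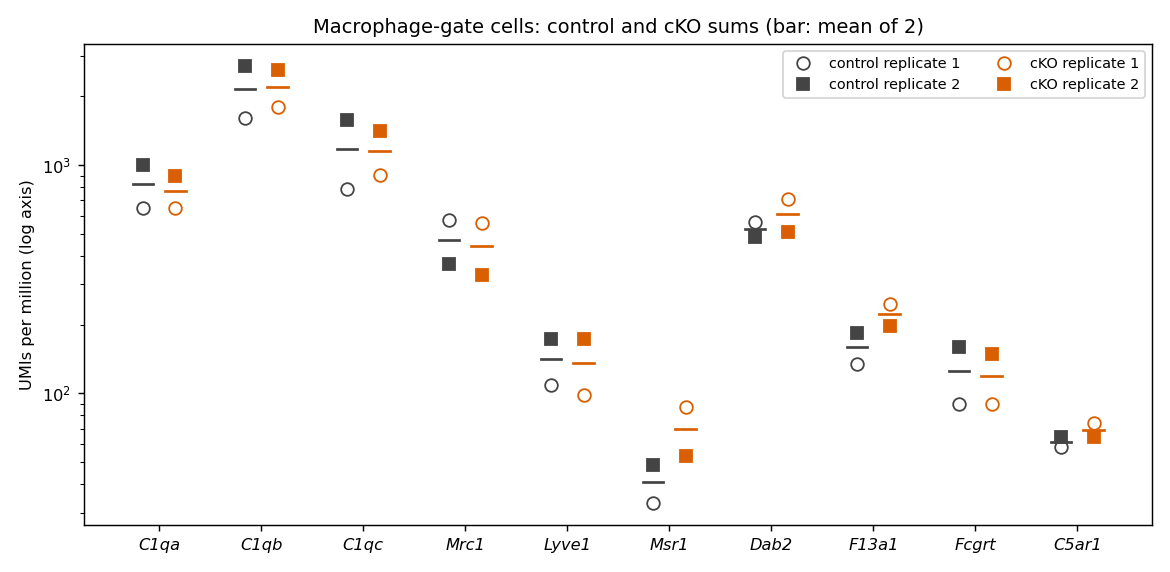
CPM (log axis) of the 10 genes in the macrophage-gate sums, control in gray and cKO in orange, replicate 1 as open circles and replicate 2 as filled squares, with a bar at the mean of 2. Both points of replicate 2 lie above those of replicate 1 for the C1q chains and below them for Mrc1, and both cKO points lie above both control points for Msr1 and F13a1.

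Outside the macrophage gate, the C1q chains were at a low level in every class. C1qb in arterial-like cells was at 0.713 and 11.1 in the cKO sums and 2.98 and 9.76 in the control sums of replicates 1 and 2, and in myeloid-like cells at 1.98 and 12.5 in the cKO sums and 1.31 and 8.13 in the control sums of replicates 1 and 2. In replicate 2, C1qb was between 5.26 and 12.5 in the myeloid-like, megakaryocyte-like, EHT-like, venous-like and arterial-like sums alike, and in replicate 1 it was at most 3.10. C1qb was detected in 24.9% (exact 95% interval 19.6 to 30.8) of arterial-like cells of replicate 2, with a median depth of 26180 UMIs, and in 35.8% (exact 95% interval 29.4 to 42.7) of megakaryocyte-like cells, with 83442 UMIs. The share was 54.5% (exact 95% interval 32.2 to 75.6) in the 22 venous-like cells of that replicate. Single cells differed, since 1 myeloid-like cell held 46.0 and 1 megakaryocyte-like cell 23.0 C1qb UMIs, with a median of 0 in both classes. Background was not estimated from empty droplets, so free RNA, doublets and transcripts of the cells themselves cannot be told apart, and no expression is read from these shares.

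F13a1 was the member with the most transcripts in other blood cells. In megakaryocyte-like cells it was at 38.8 and 39.4 CPM in the cKO and control sums of replicate 2, and was detected in 71.7% (exact 95% interval 65.1 to 77.7) of cells; in the 4 control cells of replicate 1 it was at 110.1. Myeloid-like cells had F13a1 at 16.5 and 21.8 in the cKO sums and 21.8 and 18.2 in the control sums of replicates 1 and 2. EHT-like, venous-like and arterial-like sums were all at or below 3.24, so the myeloid-like and megakaryocyte-like sums lay above all of them. Per UMI of C1qb, F13a1 was at 4.62 and 7.34 in megakaryocyte-like and 0.0843 and 0.0774 in macrophage-like sums of replicate 2. Megakaryocyte-like cells held 8.23% of all F13a1 UMIs and at most 0.747% of those of any other member.

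Dab2 was the member with the highest level in endothelium. It was at 21.7 and 31.1 in the cKO sums and 25.6 and 36.0 in the control sums of replicates 1 and 2 in arterial-like cells. The venous-like sums of at least 10 cells had Dab2 at 30.0 (cKO replicate 1), 28.8 and 31.7 (control replicates 1 and 2). The EHT-like, myeloid-like and megakaryocyte-like sums of at least 10 cells were all between 1.31 and 5.96, below every endothelial sum. Dab2 was detected in 48.2% (exact 95% interval 41.8 to 54.6) of arterial-like and 14.8% (exact 95% interval 6.98 to 26.2) of EHT-like cells of replicate 2, although EHT-like cells were sequenced more deeply.

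Venous-like and arterial-like endothelial cells were compared in 3 pairs of sums, since endothelial levels had no part in choosing the genes. Only Lyve1, Dab2 and Fcgrt passed the low-count filter, and C5ar1 had 0 UMIs in all 493 arterial-like cells, which allows at most 3 UMIs in their summed counts. Fcgrt was at 3.78, 8.92 and 23.7 in the venous-like sums of cKO replicate 1 and control replicates 1 and 2. It was at 1.43, 1.79 and 5.49 in the arterial-like sums of the same genotypes and replicates. These levels rest on few UMIs, 13, 13 and 21 in venous-like and 4, 6 and 18 in arterial-like sums. Each venous-like sum was above its arterial-like partner, and Fcgrt rose in venous-like cells (log2 fold change 2.11, SE 0.39, edgeR adjusted p = 5.28e-04), beside 36.1% of the 10137 genes tested that were called. The call was lost without the pair as a block (adjusted p = 0.114). Lyve1 was at 1.16, 15.8 and 18.1 in venous-like and 7.49, 4.17 and 6.41 in arterial-like sums. It was higher in both venous-like control sums and lower in the cKO sum of replicate 1, and did not pass the test (log2 fold change 0.70, SE 1.01, edgeR adjusted p = 0.649). Without that cKO venous-like sum the log2 fold change of Lyve1 was 1.83 (adjusted p = 8.83e-05), and without its arterial-like partner 1.81 (adjusted p = 2.53e-04). The venous-like cKO sum of replicate 2 held 8 cells and was left out of the test. Lyve1 was at 26.7 and Fcgrt at 28.0 CPM in it, the highest venous-like value of each gene. Its arterial-like partner had 2.11 and 2.37. A difference of these venous-like levels between genotypes is therefore not read from the tested sums. Dab2 did not pass the test (log2 fold change 0.28, SE 0.18, edgeR adjusted p = 0.259). Of the complement list, 5 genes were tested, 1 rose and 4 fell. C1qbp, a mitochondrial protein that also binds C1q, rose by 0.86 on the log2 scale, and Clu (-3.16) and 2 inhibitors of complement on the cell surface, Cd55 (-1.21) and Cd59a (-1.17), were among those that fell. Of 7 scavenger genes tested, Cxcl16 fell (-4.31). The median UMI count was 84462 in venous-like and 24625 in arterial-like cells, and 2 of the 4 venous check markers were higher in another class.

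**Figure D5:**
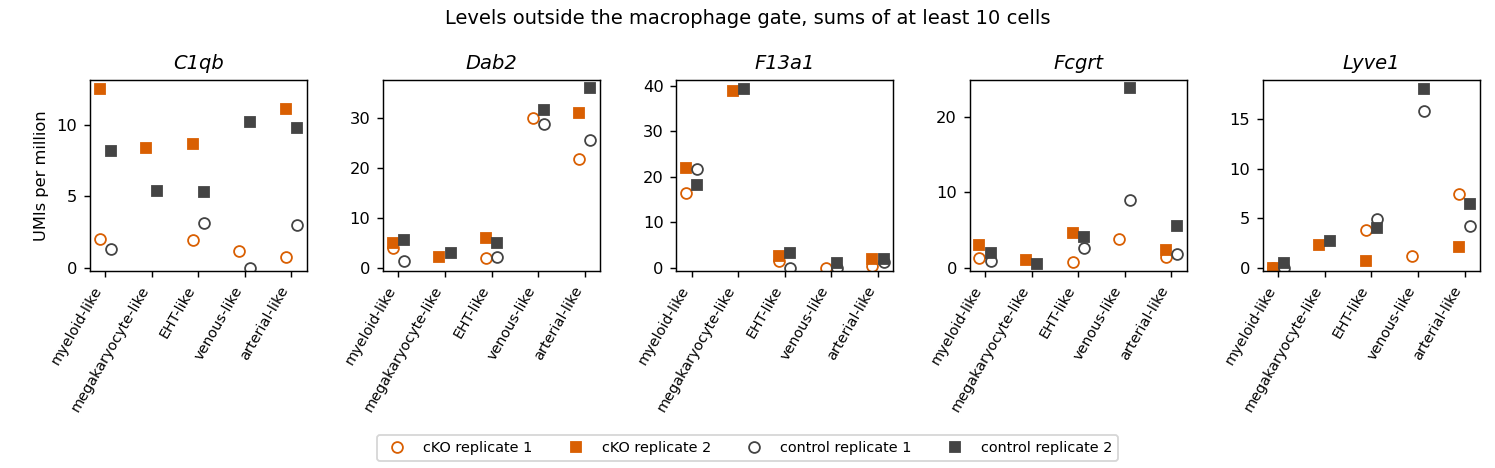
CPM (vertical axes from 0) of 5 of the genes in classes outside the macrophage gate, for sums of at least 10 cells, cKO in orange and control in gray, replicate 1 open and replicate 2 filled. C1qb is at or below 12.5 in every class shown and higher in replicate 2, Dab2 stands higher in the 2 endothelial classes, F13a1 in megakaryocyte-like and myeloid-like cells, and Fcgrt and Lyve1 in venous-like control cells. The venous-like cKO sum of replicate 2 (8 cells), with Lyve1 at 26.7 and Fcgrt at 28.0, is not shown.

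A group of 83 cells met both the macrophage and the myeloid gate. In replicate 2 these cells had C1qb at 1034 (35 cKO cells) and 816 (37 control cells) CPM, below the macrophage-like sums and above the myeloid-like ones. C1qa was a smaller part of their C1q UMIs, 10.7% in cKO and 12.4% in control, than in macrophage-like (17.4% and 18.4%) and microglia-like sums (21.8% and 21.7%) of that replicate. The 7 cKO cells of both gates in replicate 1 were at 17.5% and the 4 control ones at 14.5%, again below the macrophage-like sums (18.9% and 22.7%). The 3 cKO microglia-like cells of replicate 1 were higher, at 24.2%, whereas the 5 control ones were at 13.2%, below the cells of both gates. The uptake genes were lower too: Mrc1 was at 119 and 37.6, and Dab2 at 229.9 and 92.0, in the cKO and control sums of replicate 2. The median of 82760 UMIs per cell, against 57822 in macrophage-like and 82585 in myeloid-like cells, does not separate doublets from cells that carry both programs, and this was not tested.

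Across the 25 sums of at least 10 cells, the genes most like C1qb among 11764 genes, by Pearson correlation of log2(CPM + 1), were C1qc (r = 0.989), Aif1 (r = 0.987) and C1qa (r = 0.987). The first and the third are its neighbors on chromosome 4, and Aif1 was a gate gene. For Mrc1 they were AI607873 (r = 0.979), Msr1 (r = 0.975) and A130077B15Rik (r = 0.973). For Dab2 they were Cd83 (r = 0.963), Etv5 (r = 0.961) and Dse (r = 0.957), and for Fcgrt Maf (r = 0.964), Fam213b (r = 0.947) and Slco2b1 (r = 0.941). Of the members, F13a1 was least like Dab2 (r = 0.570), and Lyve1 was least like C1qb (r = 0.685). The sums share 2 libraries, and a gene found mainly in macrophages scores high on this measure.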

How the data were processed

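The authors aligned 10x reads with Cell Ranger 5.0.1 (build mm10 per the labels), kept hashtag singlets, and deposited a table of unnormalized UMI counts for each replicate with the hashtag of every cell; cell types are not part of the tables used here. All 2139 cells were kept, and 101 of them, all in replicate 1, were outside the stated limits of 1800 genes, 6000 UMIs and 5% mitochondrial reads. No doublet caller was run, and cells that met 2 gates were set apart. The 10 genes, the gates and the lists were chosen with earlier results of these data known. Gate genes needed at least 2 UMIs each, and sums at least 10 cells. The genes named besides the 10 are the targeted gene and the 4 largest changes among the called genes of each list. The 3 genes most like C1qb, Mrc1, Dab2 and Fcgrt are named too. Gate genes are also named, as are check markers of the megakaryocyte and microglia lists where single genes limit the reading. Xist was chosen after its values were seen.

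UMI sums were tested with edgeR 4.0.16 (R 4.3.3; filterByExpr, TMM, robust quasi-likelihood test), with Benjamini-Hochberg adjustment over all tested genes and a threshold of 0.05; the SE is the fold change over the root of F. All cells of a genotype and replicate together held between 14981582 and 46037450 UMIs. The tested sums were smaller, from 1756659 to 16009259 UMIs in the macrophage gate, 2099410 to 2330915 in microglia-like and 884562 to 3434699 in venous-like cells. Intervals are exact (Clopper-Pearson) at 95% and cover counting error only. The replicate numbers pair the genotypes, since each pool was shared by littermates in 1 lane; deviations of paired sums correlated across 9332 genes with r = 0.583, and genes are not independent replicates. With 2 sums a group, p values of the genotype comparison measure the spread between pools. Both pairs of the microglia-like comparison come from the pool of replicate 2, so its p values measure no spread between pools. The procedure was also run on simulated counts. These had the same dispersion for all genes and no difference between pools, so they do not show how it handles the spread between pools. Alternatives were RLE scaling, DESeq2 1.42.0, no low-count filter, other gates, check markers as classes, the stated cell limits, thinning to 6000 UMIs, the block, and leaving out each sum.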

Additional observations from a re-analysis of the deposited data

Results flagged for a closer look

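In 40 groups of 4 sums (10 genes in 4 classes), 3 had 1 sum far from the other 3, by a rule that flags about 1 group in 20 by chance. Lyve1 was at 0.519 CPM in the myeloid-like sum of control replicate 2 and at 0 in the other 3. Msr1 was at 0.663 in the EHT-like sum of cKO replicate 2, and C5ar1 at 0.809 in that of control replicate 2, each against 0 in the others. All 3 values rest on 1 to 3 UMIs, at or below the 3 UMIs that a count of 0 allows.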

How the results depend on the processing

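The count of genes called for genotype, 0 by edgeR, was 1.00 in DESeq2, 30.0 without the low-count filter, 3.00 with check markers as classes, 1.00 after thinning, 2.00 with the replicate block and 4.00 to 33.0 without 1 sum, and no member was called in any of the 17 settings. For microglia-like cells 1594 genes became 420 in DESeq2, 338 after thinning, 1043 with no replicate block and 836 with sums of at least 3 cells, an alternative chosen after seeing the data. Of the members' calls there, Msr1 held in all 12 settings. The setting with the stated cell limits could not differ from the main one there, since no cell of replicate 2 was outside the limits. C1qa and Fcgrt were lost with sums of at least 3 cells alone, C5ar1 with check markers as classes alone, and C1qc in 7 of the 11 alternatives. F13a1, not called at first, was called in 5 alternatives and C1qb in 2. The size of the differences depended on the classes. The median log2 fold change of the 10 members was -1.29 at first, -0.36 with check markers as classes and -0.63 at a gate of 1 UMI. It was larger in size at a gate of 3 UMIs (-1.52), after thinning (-1.74) and with sums of at least 3 cells (-1.63). Leaving out 1 sum could not be run there, since the 2 pairs would leave no residual degrees of freedom, nor could the alternatives of the genotype by class test. For venous-like cells 3656 genes became 1911 in DESeq2, 1026 after thinning and 2384 to 3724 without 1 sum, lowest without control replicate 1 (arterial-like 2384, venous-like 2413). Fcgrt was not tested after thinning or at 3 UMIs, and Dab2 was called at a gate of 3 UMIs (adjusted p = 0.0155, edgeR). The summed level of the 10 genes in macrophage-like cells, 5877 CPM, was 4830.5 with check markers as classes. The difference in microglia-like share, -5.67 points, stayed below 0 but ran from -0.971 after thinning, with none found in replicate 1, to -23.7 at a gate of 1 UMI, and from -1.68 to -9.65 without 1 sum. The causes were not tested. Small sums limit replicate 1, and genes under a few CPM cannot be told from 0.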
